A study of Mus musculus with 9 samples.

Results

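The mouse genome holds a large family of genes named Zfp followed by a number, which encode zinc finger proteins. In the deposited table of 24411 genes, 337 symbols had this form, and the 279 described here reached at least 1 TPM (a length-corrected share of all transcripts of a library) in at least 3 of the 9 libraries. Zfp36, which encodes an RNA-binding protein with another type of finger, was left out. The genes were thus chosen by their TPM, and by no comparison between groups. The other 57 symbols stayed under the threshold, and 17 of them were listed at 0 in all libraries. Of the 279 genes, 244 reached 1 TPM in all 9 libraries.

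The libraries came from macrophages of C57BL/6 mice that had been expanded in long-term culture in medium with M-CSF at 100 ng/mL, a cytokine they needed to grow. YS lines came from yolk sac at E9.5, FL lines from fetal liver at E14.5 and BM lines from adult bone marrow, and all were untransformed and carried no introduced gene. Each group had 3 lines with 1 library per line, and no control group was sequenced. A line was the bulk culture of its own dish or well. The initial cultures were seeded with pooled cells of 2 or more mice, and the 3 lines of a group may share a pool. The spread among lines, behind every SD, SE and p-value here, is thus one among cultures and not among single animals. Origin and the age of the donor cannot be told apart.

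Most proteins of this kind bind DNA through tandem C2H2 fingers, each a loop held by a zinc ion, and the fingers together read a DNA sequence. Many also carry a KRAB box near the amino terminus, which recruits Trim28 (KAP1) and through it the histone methyltransferase Setdb1, heterochromatin proteins and the NuRD complex. KRAB zinc finger genes stand in clusters on a few chromosomes and are best known for silencing retroelements and for keeping methylation at imprinted genes, while members without the box include activators, RNA-binding proteins and spindle proteins.

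A KRAB box was found by a short pattern in 144 of the 276 genes with a coding sequence in the annotation. In the other 132 the pattern found none. The pattern for the box was loosened after a stricter one, which gave 98 genes, was seen to miss boxes with a changed residue. The looser pattern may miss boxes too, so that a gene without the box is here one in which none was found. Genes with the box had a median of 12 C2H2 fingers and the others a median of 7. Chromosome 7 held 75 of the genes, chromosome 17 held 35 and chromosome 13 held 27. Altogether 140 genes stood in 41 runs of at least 2 neighbours, the longest with 14 genes.

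Upstream sequence was available in RefSeq for 235 of the genes, and the first listed start of each was used, with the 250 bases before it. The 10-base word held by the most of these promoters, on either strand, was ACTACATTTC, with the reverse complement GAAATGTAGT. It stood in 26 of the 235 (11.1%), against 160 of 27025 promoters of all genes (0.592%, these 26 included). No other motif was searched, and the word was picked because it was the most frequent, so that its share is a description. It was present in 19 of 129 promoters of genes with a KRAB box (14.7%) and in 7 of 105 without (6.67%). The windows below show it in capitals with up to 15 bases on each side, as read on the gene's strand from 5′ to 3′ (GRCm38.p6). They come from the 3 genes with the word that were called in a comparison, from Zfp260, the one of the 26 with the highest mean level, and from a gene of the chromosome 13 cluster (Zfp953).
Zfp605 (chr5:110110056-110110091, plus strand): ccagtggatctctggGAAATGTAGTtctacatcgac
Zfp108 (chr7:24254657-24254696, plus strand): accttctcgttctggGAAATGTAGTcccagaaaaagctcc
Zfp334 (chr2:165388351-165388390, minus strand): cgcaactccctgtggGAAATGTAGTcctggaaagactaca
Zfp260 (chr7:30095034-30095073, plus strand): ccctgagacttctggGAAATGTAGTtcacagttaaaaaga
Zfp953 (chr13:67360621-67360660, minus strand): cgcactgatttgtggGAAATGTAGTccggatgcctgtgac
In all 5 the word is preceded by the letters TGG on the strand shown, and it lies between 11 and 112 bases before the start. Neither holds for all 26: Zfp189, Zfp383, Zfp444 and Zfp94, among others, have other letters there, and the distance ranges from 4 to 223 bases.

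Levels were low as a rule. The median of the 279 mean levels was 9.03 TPM, against 27.6 TPM over the 11753 genes that passed the same threshold. Genes with a KRAB box had a median of 6.79 TPM and those without 13.7 TPM. Only 8 genes had a mean of 50 TPM or more, and 20 had a mean under 2 TPM. Together the 279 genes held between 0.337% and 0.427% of the TPM of a library.

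The highest levels belonged to genes in which no KRAB box was found. Zfp207 (BuGZ), a protein of spindle assembly that binds Bub3 and microtubules, was at 197.72, 186.23 and 196.77 TPM in the YS lines 1 to 3, at 186.93, 221.59 and 180.78 TPM in the FL lines and at 208.45, 201.81 and 194.02 TPM in the BM lines. Its groups overlapped in all comparisons. Zfp710 reached 101 ± 4.59 TPM in the YS lines, 97.4 ± 7.60 TPM in the FL lines and 66.7 ± 4.17 TPM in the BM lines (SD, n = 3 each). Zfp91, an E3 ubiquitin ligase, was higher in every BM line than in any YS or FL line, with 104 ± 8.50 TPM against 66.2 ± 5.07 TPM in the YS lines and 55.1 ± 7.22 TPM in the FL lines (SD, n = 3 each). Zfp106, an RNA-binding protein, was at 79.0 ± 12.7, 59.4 ± 7.75 and 55.4 ± 2.03 TPM in YS, FL and BM lines. Zfp706 followed with 68.1 ± 6.96, 59.7 ± 6.20 and 47.5 ± 2.25 TPM, and Zfp146, built almost wholly of fingers, with 63.2 ± 11.5, 52.2 ± 5.53 and 48.7 ± 1.94 TPM in the same order. None of these 6 genes was called in any comparison.

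The 3 genes just inside the threshold were Zfp300, Zfp174 and Zfp93, whose third-highest levels were 1.01, 1.19 and 1.24 TPM. Just outside stood Zfp114, Zfp647 and Zfp882, at 0.91, 0.83 and 0.63 TPM. Among the 279 genes, 2 reached 1 TPM in exactly 3 libraries, and 1 of them, Zfp300, did so in the 3 lines of a single group.

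Differences between groups were tested on log2(TPM + 1) for all 11753 genes in one limma model over the 9 libraries. A gene was called at a false discovery rate under 0.1 (Benjamini-Hochberg) and a change of more than 2-fold on that scale, which understates changes of low genes. Between YS and BM lines, 27 of the 279 genes were called (9.68%, against 12.8% of all genes), 21 higher in YS lines (7.53%, against 7.57%) and 6 lower (2.15%, against 5.22%). Between FL and BM lines, 21 were called (7.53%, against 10.3%), 18 higher in FL lines (6.45%, against 6.01%) and 3 lower (1.08%, against 4.3%). Between YS and FL lines, 8 were called (2.87%, against 3.79%), with 4 in each direction (1.43%, against 1.95% higher and 1.85% lower). On the same scale 250, 256 and 269 of the 279 genes stayed within 2-fold in the 3 comparisons. The 3 genes called lower in FL than in BM lines became 6 without FL line 2 and 5 with median-of-ratios scaling, and the 4 called higher in YS than in FL lines became 2 without YS line 1, FL line 2, BM line 1 or BM line 3.

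Altogether 38 genes were called in at least 1 comparison and none in all 3. The matching counts over all genes tested are not given here, nor are those for genes apart in 1 group below. Such counts therefore describe the 279 genes alone. In every one of these calls the lines of both groups did not overlap. The comparisons share the lines of each group, so that a gene far from the others in BM lines tends to be called in both comparisons that hold them.

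**Figure D1:**
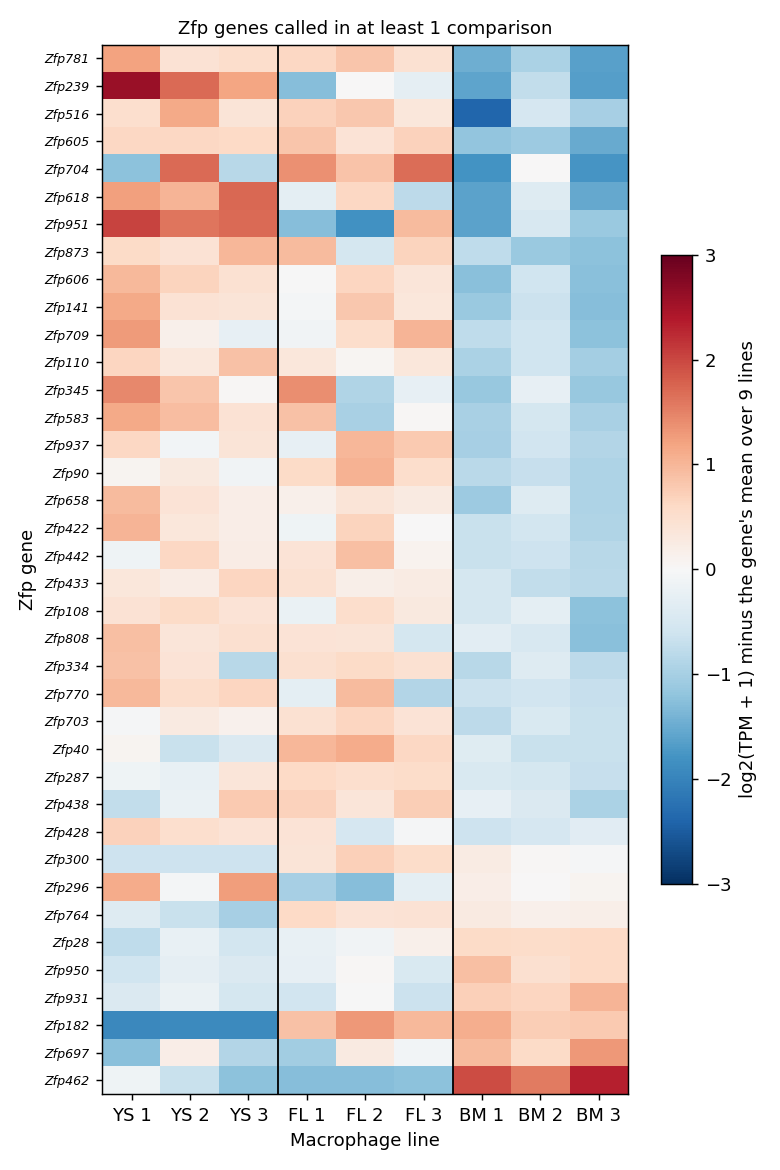
The 38 genes called in at least 1 comparison (rows) in the 9 macrophage lines (columns). The colour gives log2(TPM + 1) minus the gene's mean over all lines; most rows are lower in BM lines than in YS and FL lines, and Zfp182, near the bottom, is low in the 3 YS lines and high in the others.

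The median difference of the 279 genes was 0.20 between YS and BM lines, against 0.11 for all genes tested, and 0.18 for FL against BM lines, against 0.09. Relative to the median of all genes the shift was thus 0.087 and 0.085. With median-of-ratios scaling the median of all genes fell to 0.0041 and 0.0035, and that of the 279 genes to 0.098 and 0.096. Between YS and FL lines the medians were 0.019 and 0.021. Lines of YS and BM did not overlap for 131 of the 279 genes (47%, against 49% of all genes), of which 101 were higher in YS lines (36.2%, against 30.3%). For FL and BM lines the number was 121 (43.4%, against 49.5%), with 99 higher in FL lines (35.5%, against 31%). For YS and FL lines it was 63 (22.6%, against 26.1%), 22 higher in YS lines (7.89%, against 12.6%) and 41 lower (14.7%, against 13.5%).

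Zfp182, a KRAB zinc finger gene of the X chromosome, was at or near 0 in YS lines. It was listed at 0, 0.03 and 0.03 TPM in the YS lines, at 6.03, 8.45 and 6.51 TPM in the FL lines and at 7.13, 5.45 and 5.6 TPM in the BM lines. Each YS line was near 0, and FL and BM lines overlapped. The log2 difference was -2.96 between YS and FL lines (SE 0.19, limma adjusted p = 0.00023) and -2.78 for YS against BM lines (SE 0.19, limma adjusted p = 0.00016). It was 0.18 between FL and BM lines (SE 0.19, limma adjusted p = 0.57). Zfp182 was the only gene lower in YS lines than in both other groups, and its calls held in all the alternatives.

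Zfp300, another KRAB zinc finger gene, stands beside Zfp182 with a single protein-coding gene, Spaca5, between them in the RefSeq order. It was listed at 0 in all 3 YS lines, at 1.01, 1.52 and 1.26 TPM in the FL lines and at 0.85, 0.59 and 0.51 TPM in the BM lines. The 3 groups did not overlap, but the gene passed the threshold through FL lines alone, and its levels are therefore given as a description, although its call between YS and FL lines counts among the 8. No fold is given against YS lines, where it was listed at 0. The genes on the other side of Zfp182 were present in YS lines, with Uxt at 15.79, 35.7 and 44.67 TPM, Elk1 at 17.57, 31.2 and 18.43 TPM and Cfp at 198.43, 919.58 and 751.99 TPM. Spaca5 was at 0.36 TPM or less in every line. The other 2 members on the X chromosome, Zfp275 and Zfp449, were at 9.88 to 12.32 TPM and 0.38 to 1.49 TPM in the YS lines and were not called. Of the sex-linked transcripts, Xist was at 302.67 and 176.17 TPM in FL lines 2 and 3 and at 0.08 TPM or less in every other line, and Ddx3y was at 47.7 TPM in FL line 1 and at 0.03 TPM or less elsewhere. Zfp182 was near 0 in no FL line, and the part of sex chromosomes in these levels was not tested.

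**Figure D2:**
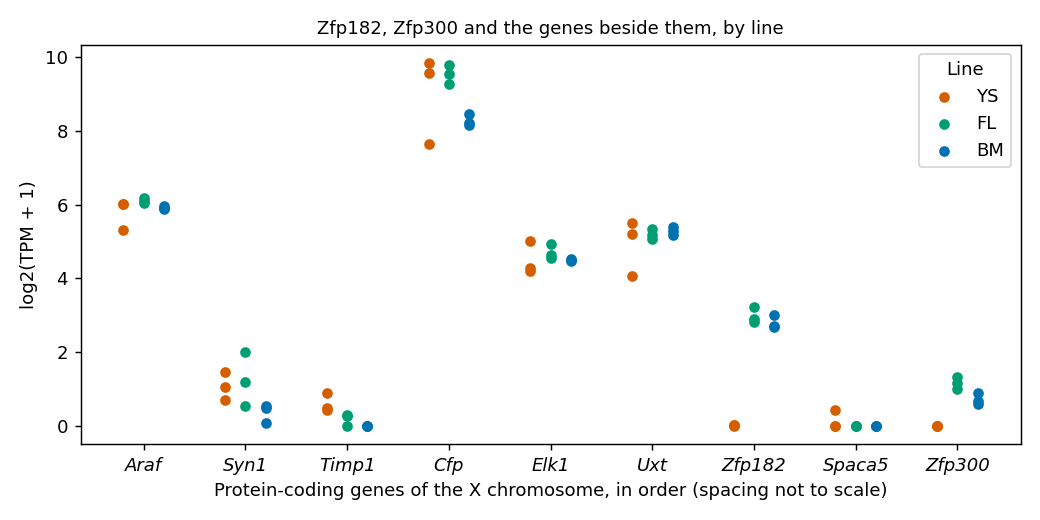
Levels of Zfp182, Zfp300 and the protein-coding genes beside them on the X chromosome, as log2(TPM + 1), with 1 point per line and the genes in chromosomal order without distances. Zfp182 and Zfp300 are at or near 0 in the 3 YS lines, while Araf, Cfp, Elk1 and Uxt are present in them.

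The 250 bases before the start of Zfp300 are shown because it is the gene listed at 0 in a whole group, with the 10 CG pairs in capitals (chrX:21089230-21089479, minus strand, GRCm38.p6, RefSeq). Those of Zfp239, the gene with the largest rise in YS against BM lines, are shown for comparison and hold 2 (chr6:117861774-117862023, plus strand).
Zfp300: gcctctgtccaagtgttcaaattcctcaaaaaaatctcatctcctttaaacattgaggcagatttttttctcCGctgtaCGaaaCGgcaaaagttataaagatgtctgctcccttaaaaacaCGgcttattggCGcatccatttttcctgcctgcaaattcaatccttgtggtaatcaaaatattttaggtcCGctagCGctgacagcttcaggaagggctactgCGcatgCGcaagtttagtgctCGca
Zfp239: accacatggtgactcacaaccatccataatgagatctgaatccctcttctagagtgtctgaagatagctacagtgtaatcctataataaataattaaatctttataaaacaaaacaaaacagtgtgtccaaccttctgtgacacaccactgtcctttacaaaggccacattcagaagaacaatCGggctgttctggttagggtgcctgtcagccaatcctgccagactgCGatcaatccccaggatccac
Over the 235 promoters of the Zfp genes the median was 11 CG pairs, over all 27025 promoters it was 6, and 58.7% of the former and 38.2% of the latter held at least 10. For the 129 promoters of genes with a KRAB box, as Zfp300 has, the median was 8, and 41.9% held at least 10. Methylation was not measured in these data.

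Higher in YS lines than in both other groups were 3 genes. Zfp239 (MOK2), which binds DNA and RNA, was at 18.19, 9.33 and 6.25 TPM in the YS lines, at 0.31, 2.22 and 1.62 TPM in the FL lines and at 0.06, 0.91 and 0 TPM in the BM lines. All YS lines lay above all others. Its log2 difference was 3.16 between YS and BM lines (SE 0.47, limma adjusted p = 0.0033), the largest rise of the 279 genes in that comparison, and 2.34 for YS against FL lines (SE 0.47, limma adjusted p = 0.037).

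Zfp951, with a KRAB box, was at 21.13, 15.56 and 16.55 TPM in the YS lines, at 1.24, 0.55 and 9.47 TPM in the FL lines and at 0.77, 2.89 and 1.49 TPM in the BM lines. FL line 3 stood apart from the other FL lines. The log2 difference was 2.85 between YS and BM lines (SE 0.64, limma adjusted p = 0.014) and 2.49 for YS against FL lines (SE 0.64, limma adjusted p = 0.062). The call between YS and FL lines was lost without any of YS line 1, FL line 1, FL line 2, BM line 1 or BM line 3, with limma adjusted p of up to 0.17 and log2 differences of 1.94 to 2.49.

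Zfp618, known to bind Uhrf2, a reader of hydroxymethylated DNA, was at 6.78, 5.74 and 10.1 TPM in the YS lines, at 1.71, 4.1 and 0.95 TPM in the FL lines and at 0.1, 1.56 and 0.16 TPM in the BM lines. YS lines lay above all others, and BM line 2 was within the range of FL lines. The log2 difference between YS and BM lines was 2.49 (SE 0.44, limma adjusted p = 0.0062). Between YS and FL lines it was 1.48 (SE 0.44, limma adjusted p = 0.086), and that call was lost in 7 of the 9 fits that left out a line, namely those without YS line 1 or 3, any FL line, or BM line 1 or 3 (1.17 to 1.86, limma adjusted p of 0.10 to 0.23).

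Zfp296, a factor known from reprogramming to pluripotency, was called between YS and FL lines alone. It was at 14.64, 5.87 and 16.07 TPM in the YS lines, at 2.62, 1.95 and 4.88 TPM in the FL lines and at 7.25, 6.27 and 6.59 TPM in the BM lines. BM lines lay within the range of YS lines. The log2 difference between YS and FL lines was 1.62 (SE 0.37, limma adjusted p = 0.050), and without FL line 2 it was 1.41 and not called (limma adjusted p = 0.15).

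One gene was higher in FL lines than in both other groups. Zfp40, with a KRAB box, was at 20.94, 22.65 and 15.97 TPM in the FL lines, at 10.72, 5.88 and 7.09 TPM in the YS lines and at 7.62, 5.89 and 5.92 TPM in the BM lines. YS and BM lines overlapped. The log2 difference was 1.47 between FL and BM lines (SE 0.23, limma adjusted p = 0.0034) and -1.25 for YS against FL lines (SE 0.23, limma adjusted p = 0.028).

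Zfp764, also with a KRAB box, was at 5.8, 4.62 and 3.45 TPM in the YS lines, below 12.4, 10.73 and 11.05 TPM in the FL lines and 9.74, 8.78 and 8.97 TPM in the BM lines. Its log2 difference between YS and FL lines was -1.16 (SE 0.18, limma adjusted p = 0.017), and between YS and BM lines it was -0.87, under 2-fold. Of the 75-base stretches of its transcripts, 86.8% occur in no other gene, so that part of its reads may have been shared out by the quantifier. Of the 8 calls between YS and FL lines, that of Zfp182 alone was left when the fit held only the 6 YS and FL libraries.

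**Figure D3:**
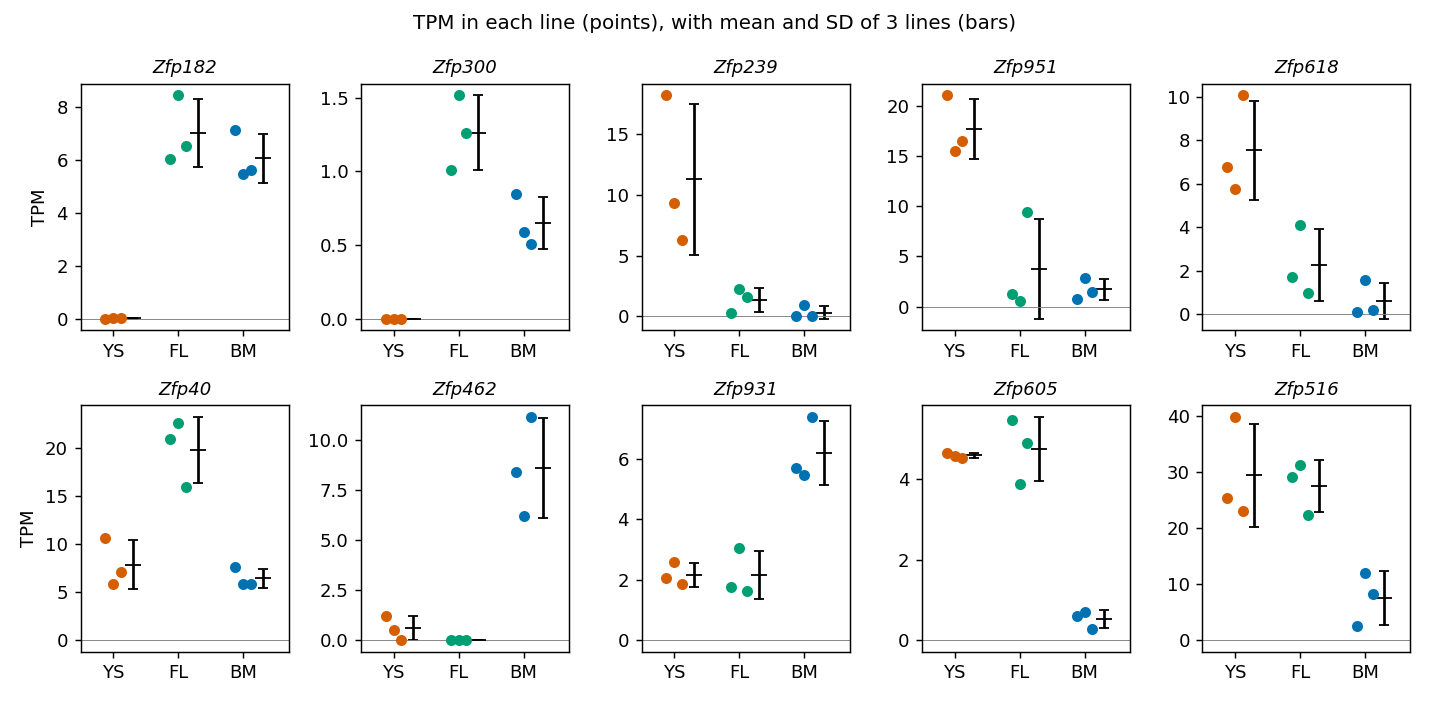
TPM of 10 genes in each line (points, 3 per group), with the mean and SD of the 3 lines to the right of each group. YS lines are lowest for Zfp182 and Zfp300 and highest for Zfp239, Zfp951 and Zfp618, FL lines are highest for Zfp40, and BM lines are highest for Zfp462 and Zfp931 and lowest for Zfp605 and Zfp516.

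BM lines were higher than both other groups for 3 genes. Zfp462, a large zinc finger protein needed in embryonic stem cells and neural development, was at 8.39, 6.21 and 11.17 TPM in the BM lines. It was at 1.23, 0.52 and 0.03 TPM in the YS lines and at 0, 0 and 0.03 TPM in the FL lines. No line of YS or FL came near those of BM. The log2 difference was -3.21 between FL and BM lines (SE 0.32, limma adjusted p = 0.00066) and -2.63 for YS against BM lines (SE 0.32, limma adjusted p = 0.0018), and both calls held in all the alternatives.

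Zfp931, a KRAB zinc finger gene of chromosome 2, was at 5.71, 5.47 and 7.4 TPM in the BM lines, at 2.05, 2.61 and 1.85 TPM in the YS lines and at 1.76, 3.06 and 1.63 TPM in the FL lines. The log2 difference was -1.18 between YS and BM lines (SE 0.23, limma adjusted p = 0.0083) and -1.21 for FL against BM lines (SE 0.23, limma adjusted p = 0.0078). Its transcripts have 87.4% unique 75-base stretches. Zfp697 was at 4.26, 3.02 and 5.66 TPM in the BM lines, against 0.14 to 2.11 TPM in the YS lines and 0.31 to 2.25 TPM in the FL lines. Its log2 difference was -1.59 between YS and BM lines (SE 0.46, limma adjusted p = 0.034), not called without BM line 1 or 3 (-1.58 and -1.41, limma adjusted p = 0.10 and 0.12). Between FL and BM lines it was -1.23 (SE 0.46, limma adjusted p = 0.096), and the call was lost without any BM line, FL line 1, FL line 3 or YS line 3 (-0.85 to -1.42, limma adjusted p of 0.10 to 0.27).

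Zfp28 and Zfp950, both with a KRAB box, were called lower in YS than in BM lines alone. Zfp28 was at 4.72, 7.38 and 5.62 TPM in the YS lines, at 7.3, 8 and 9.74 TPM in the FL lines and at 13.61, 13.35 and 13.75 TPM in the BM lines. Its log2 difference of -1.09 between YS and BM lines (SE 0.18, limma adjusted p = 0.0044) fell under 2-fold without YS line 1 (-0.97). Zfp950 was at 10.27, 13.08 and 11.65 TPM in the YS lines and at 30.97, 23 and 24.67 TPM in the BM lines, with a log2 difference of -1.10 (SE 0.18, limma adjusted p = 0.0043) that fell under 2-fold without BM line 1 (-0.98).

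The largest group held 10 genes lower in BM lines than in both other groups, namely Zfp110, Zfp141, Zfp516, Zfp605, Zfp606, Zfp658, Zfp709, Zfp781, Zfp873 and Zfp937. Over all genes tested, too, more were called higher than lower in YS than in BM lines (7.57% against 5.22%). For FL against BM lines the shares were 6.01% and 4.3%. Of the 75-base stretches of Zfp937, 81.4% are unique. The pattern found a KRAB box in all but Zfp110 and Zfp516. Zfp605 varied little among YS lines, at 4.65, 4.58 and 4.52 TPM in the YS lines, at 5.46, 3.88 and 4.9 TPM in the FL lines and at 0.61, 0.71 and 0.28 TPM in the BM lines. Its log2 difference was 1.88 between YS and BM lines (SE 0.20, limma adjusted p = 0.0011) and 1.91 for FL against BM lines (SE 0.20, limma adjusted p = 0.00077). Zfp516, which is known as an activator of Ucp1 in brown fat, was at 25.32, 39.88 and 23.03 TPM in the YS lines, at 29.03, 31.18 and 22.32 TPM in the FL lines and at 2.56, 12.06 and 8.19 TPM in the BM lines. It was the gene of this group with the widest spread among BM lines, and its log2 differences were 1.97 and 1.91 (SE 0.44, limma adjusted p = 0.013 and 0.017).

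Zfp606 was at 6.29, 4.98 and 4.09 TPM in the YS lines, at 2.73, 4.85 and 3.8 TPM in the FL lines and at 0.58, 1.47 and 0.57 TPM in the BM lines. BM lines lay below all others, with log2 differences of 1.73 and 1.37 (SE 0.27, limma adjusted p = 0.0039 and 0.0095). Zfp141 was at 11.04, 6.43 and 6.12 TPM, at 4.27, 8.53 and 5.9 TPM and at 1.53, 2.48 and 1.26 TPM in YS, FL and BM lines. Its log2 differences were 1.67 and 1.37 (SE 0.30, limma adjusted p = 0.0066 and 0.015).

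Chromosome 10 held only 4 of the genes, all with a KRAB box, and 3 of them were called higher in YS than in BM lines, against 7.57% of all genes and 3.81% of the 525 genes tested on that chromosome. Zfp873 was at 4.32, 3.84 and 6.18 TPM in the YS lines, at 5.92, 1.5 and 4.72 TPM in the FL lines and at 1.1, 0.67 and 0.52 TPM in the BM lines. Its log2 differences from BM lines were 1.71 for YS lines and 1.40 for FL lines (SE 0.38, limma adjusted p = 0.013 and 0.032), the latter not called without BM line 3 (1.304, limma adjusted p = 0.12). Zfp781 was at 7.47, 3.95 and 4.27 TPM, at 4.62, 5.55 and 4.04 TPM and at 0.33, 0.92 and 0.18 TPM in YS, FL and BM lines, with log2 differences of 2.07 and 1.98 (SE 0.28, limma adjusted p = 0.0026 and 0.0025). Zfp433 fell from 12.18 to 16.61 TPM in the YS lines to 5.41 to 6.76 TPM in the BM lines. Only 5.63% of the 75-base stretches of Zfp781 and 19.5% of those of Zfp433 are unique, so that both values rest on reads that other genes share. The fourth gene, Zfp938, was at 8.65 to 10.99 TPM in the YS lines and 8.77 to 9.02 TPM in the BM lines and was not called.

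Some genes were called between FL and BM lines alone. Zfp90, with a KRAB box, was at 24.9, 35.2 and 24.08 TPM in the FL lines, at 17.59, 20.38 and 15.2 TPM in the YS lines and at 8.88, 9.75 and 8.24 TPM in the BM lines. The 3 groups did not overlap, and the log2 difference between FL and BM lines was 1.53 (SE 0.18, limma adjusted p = 0.0012). Zfp704 was at 9.69, 6.47 and 12.1 TPM in the FL lines, at 0.75, 12.26 and 1.32 TPM in the YS lines and at 0.19, 3.15 and 0.2 TPM in the BM lines. YS line 2 and BM line 2 stood apart from the other lines of their groups. The log2 difference between FL and BM lines was 2.49 (SE 0.78, limma adjusted p = 0.055), and it was not called without FL line 1, FL line 3, BM line 1 or BM line 3 (2.19 to 2.45, limma adjusted p of 0.13 to 0.18).

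BM line 2 was the highest BM line for 17 of the 21 genes called higher in YS than in BM lines and for 14 of the 18 called higher in FL than in BM lines, but for 67 of all 279 genes. It was the highest BM line for none of the 6 and 3 genes called in the other direction. BM line 2 also had 14195 genes of the whole table above 0, against 13368 and 13345 in BM lines 1 and 3. The matching counts over all called genes are not given here. Without BM line 2, 27 and 21 genes were called, as with it. The same line was the only one with marked erythroid transcripts, with Hba-a1 at 214.99 TPM against 8.62 TPM or less in all others, and the summed erythroid markers reached 228 TPM in it and at most 15.5 TPM in any YS line. Their part in the levels of Zfp genes was not tested. Of the 8 macrophage markers examined, all were above 1 TPM in every line. They summed to 4215 to 9309 TPM in the YS lines, 11790 to 28520 TPM in the FL lines and 11720 to 13300 TPM in the BM lines. Among them Fcgr1 was called lower in BM lines than in both other groups, Mertk higher in FL lines than in both, and Lyz2 lower in YS lines than in both, and their part in the levels of Zfp genes was not tested. Endothelial markers summed to 30.1 to 56.0 TPM in the YS lines, 18.97 to 51.8 TPM in the FL lines and 0.19 to 3.20 TPM in the BM lines, with Kdr at up to 54.35 TPM and Tie1 at up to 25.82 TPM, Pecam1 at 4.91 and 8.17 TPM in YS lines 1 and 2 and at 0.56 TPM or less in all other lines, Cdh5 at 1.38 TPM or less and Emcn at 0. Fibroblast markers summed to 1.27 TPM or less in every line, lymphocyte markers to 2.63 TPM or less, granulocyte and mast cell markers to 1.24 TPM or less, and hepatocyte and visceral endoderm markers to 20.6 TPM or less. In bulk libraries, fewer cells of a type and less RNA per cell cannot be told apart.

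By role, the list of imprint and retroelement repressors had 6 measured members among the 279 and none was called. Over all genes 12.8% were called between YS and BM lines. These lines did not overlap for 4 of the 6 (66.7%, against 49% of all genes). Zfp445, which together with Zfp57 keeps imprints, was at 38.63 to 53.57 TPM in the YS lines, 34.57 to 42.48 TPM in the FL lines and 29.86 to 33.95 TPM in the BM lines. Zfp809, a silencer of murine leukaemia virus, was at 19.18 to 46.98, 16.65 to 24.16 and 21 to 25.44 TPM in the same order. Zfp568, a repressor of a placental Igf2 transcript, was at 7.17 to 14.07, 7.06 to 7.84 and 5.09 to 6.21 TPM. Zfp57 itself did not reach the threshold.

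None of the 9 RNA, ribosome and spindle proteins was called in any comparison. YS and BM lines did not overlap for 3 of them (33.3%, against 49% of all genes). Zfp622, a factor of 60S ribosome maturation, was at 41.37 to 49.1 TPM in the YS lines, 32.05 to 38.57 TPM in the FL lines and 24.6 to 29.83 TPM in the BM lines, and its groups did not overlap. Its log2 difference between YS and BM lines was 0.74 (limma adjusted p = 0.0053), under 2-fold. Zfp598, the ubiquitin ligase of stalled ribosomes, was at 23.97 to 36.47, 27.32 to 32.32 and 30.14 to 32.83 TPM. None of the 21 broadly expressed transcription regulators was called either. Their log2 differences between YS and BM lines had a median of 0.28, against 0.11 for all genes tested. These lines did not overlap for 13 of the 21 (61.9%, against 49% of all genes). Zfp91 and Zfp710 differed by -0.64 and 0.60 between YS and BM lines (limma adjusted p = 0.0087 and 0.0048), under 2-fold.

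The developmental regulators were the list with calls. Of the 12 named, 7 passed the threshold, and 3 of these were called between YS and BM lines (2 higher, 1 lower; 42.9%, against 12.8% of all genes). Between FL and BM lines 4 were called (3 higher, 1 lower; 57.1%, against 10.3%) and 1 for YS against FL lines (14.3%, against 3.79%). They are Zfp462, Zfp516, Zfp618 and Zfp704, described above, and Zfp703, a co-repressor of the Groucho pathway. Zfp703 was at 37.41, 43.11 and 36.09 TPM in the FL lines, at 26.58, 32.93 and 29.9 TPM in the YS lines and at 15.38, 19.42 and 16.78 TPM in the BM lines. Its log2 difference between FL and BM lines was 1.13 (SE 0.14, limma adjusted p = 0.0013). Zfp503 and Zfp608 were not called. The list was drawn up with earlier results of these data known, so that its shares are a description.

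Genes with and without a KRAB box were then set side by side. With the box, 18 of 144 were called between YS and BM lines (12.5%, against 12.8% of all genes) and 13 for FL against BM lines (9.03%, against 10.3%). Without it, 9 of 132 (6.82%) and 8 (6.06%) were called. By the stricter pattern the order turned around, with 6 of 98 (6.12%) against 21 of 178 (11.8%) between YS and BM lines and 6 (6.12%) against 15 (8.43%) between FL and BM lines, so that the order of the shares depends on the pattern. Of the genes called between YS and FL lines, Zfp182, Zfp40 and Zfp764, lower in YS lines, have the box, as has Zfp300, which is left out of this contrast because it passed the threshold through FL lines alone. Among those called higher Zfp951 has the box, and in Zfp239, Zfp296 and Zfp618 the pattern found none. Counted by lines that did not overlap, 28 of the 144 genes with the box, Zfp300 included, were lower in YS than in FL lines (19.4%, against 13.5% of all genes) and 7 higher (4.86%, against 12.6%). Without the box the numbers were 12 lower and 15 higher of 132. The median log2 difference between YS and FL lines was -0.053 with the box and 0.060 without, and by the stricter pattern it was -0.053 and 0.041.

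**Figure D4:**
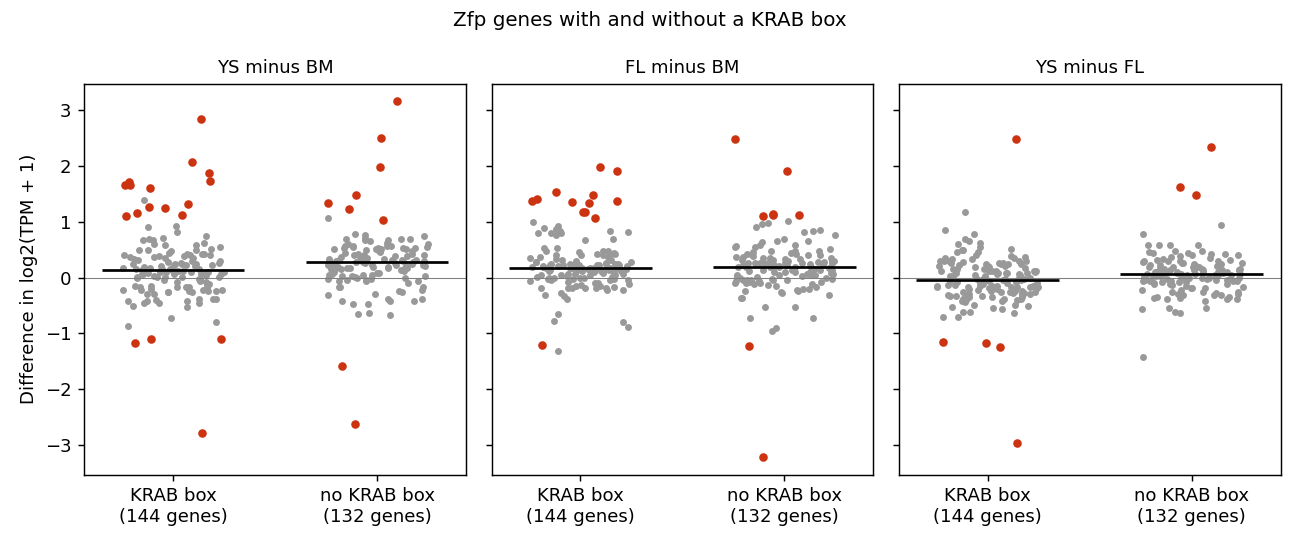
Differences in log2(TPM + 1) of the genes with and without a KRAB box in the 3 comparisons, with 1 point per gene, called genes in red and the median as a line. The medians between YS and FL lines are -0.053 with the box and 0.060 without.

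The genes with the box that were lower in YS than in FL lines stood mostly on chromosomes 13 and 17. On these chromosomes 17 of 51 were lower in YS lines without overlap (33.3%) and 1 was higher (1.96%). Elsewhere 11 of 93 were lower (11.8%) and 6 higher (6.45%). All genes tested on both chromosomes leaned the same way, with 247 of 1004 lower in YS lines without overlap (24.6%) and 46 higher (4.58%). Of all genes tested elsewhere, 1250 of 10156 were lower without overlap (12.3%) and 1360 higher (13.4%). In the run of 6 neighbours on chromosome 13 with Zfp429 and Zfp953, the median difference between YS and FL lines was -0.31, and in the run of 6 on chromosome 17 with Zfp51 and Zfp54 it was -0.24. Over all 27 members on chromosome 13 it was -0.28, against -0.19 for the 407 genes tested there, and over the 35 on chromosome 17 it was -0.17, against -0.11 for 597 genes.

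On other chromosomes, too, the members can be set beside all genes tested. The 14 members on chromosome 9 were all higher in YS than in FL lines in the mean (median 0.20, against 0.26 for 617 genes). The lines of both groups overlapped for all 14, and none was called. Of the 617 genes, 462 were higher in YS lines in the mean. The 75 members on chromosome 7 had a median of 0.10, against 0.091 for 858 genes. Chromosome 19 held 2 members, Zfp91 and Zfp950, and both were higher in BM than in FL lines without overlap. The median of both was -0.90 between FL and BM lines and -0.87 for YS against BM lines. Of the 404 genes tested on that chromosome, 318 were lower in FL than in BM lines without overlap (78.7%, against 18.5% of all genes), with a median of -0.79. Their part in the levels of Zfp91 and Zfp950 was not tested. On chromosome 10 the median of the 4 members between FL and BM lines was 1.20, against 0.13 for 525 genes. Among these members, Zfp781 and Zfp433 rest on reads that other genes share. On chromosome 2 the median of the 14 members was 0.40, against 0.057 for 904 genes. Of the called genes there, Zfp345, Zfp442, Zfp931 and Zfp937 have 86.7%, 78.6%, 87.4% and 81.4% unique 75-base stretches, so that part of their reads may be shared.

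**Figure D5:**
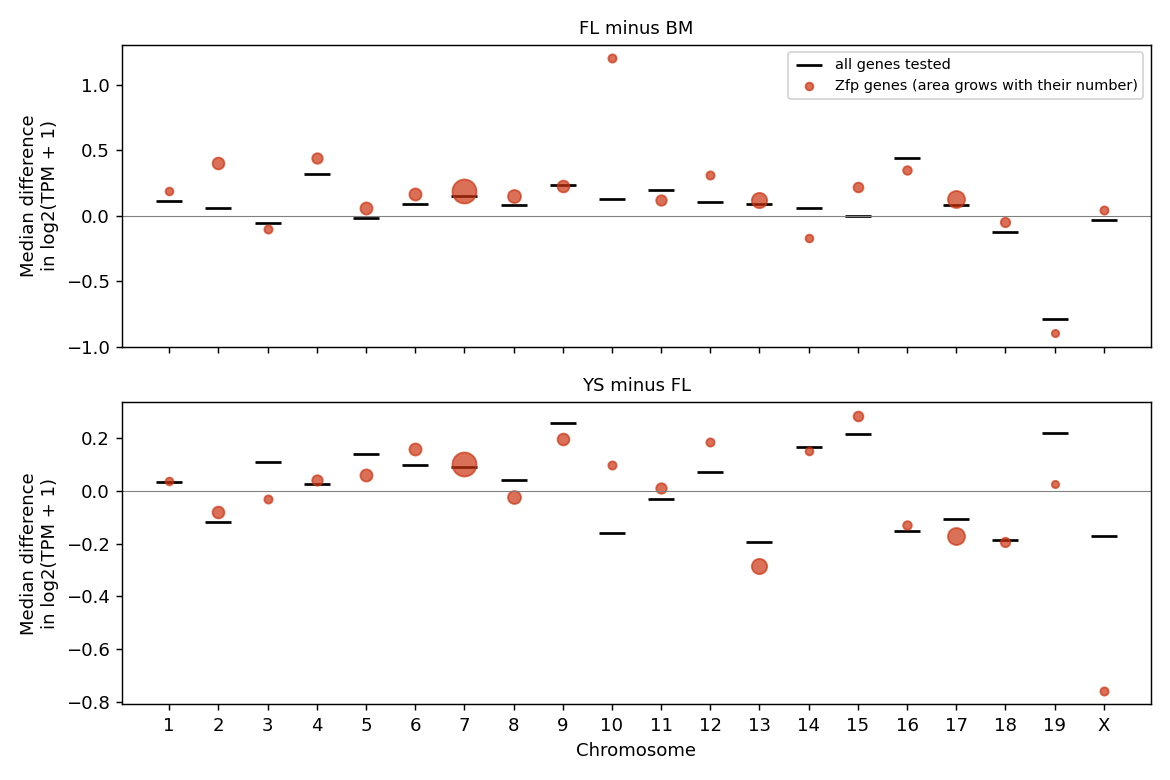
Median difference in log2(TPM + 1) by chromosome for all genes tested (black bars) and for the Zfp genes (red points, whose area grows with their number), between FL and BM lines (top) and between YS and FL lines (bottom). Chromosome 19 is low for both in the top panel, at -0.79 and -0.90, and the members on chromosomes 13 and 17 lie below 0 in the bottom panel together with all genes there.

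Members also differed between lines of one group. By a rule chosen after the values were seen, a line under 0.3 TPM beside a line of the same group at 3 TPM or more, 4 genes stood out in FL lines and 1 in BM lines. Zfp677, a KRAB zinc finger gene of chromosome 17, was at 5.54, 6.4 and 0.26 TPM in the FL lines 1 to 3, against 6.68 to 9.82 TPM in the YS lines and 7.59 to 10.25 TPM in the BM lines. Zfp870, on the same chromosome, was at 3.95, 0.02 and 1.9 TPM in the FL lines. Zfp760 was at 0.27, 4.11 and 0 TPM in them, and Zfp345 at 4.76, 0.17 and 0.84 TPM. The gene in BM lines was Zfp704, described above. Such genes were 1.43% of the members in FL lines, against 1.64% of all genes tested, and 0% in YS lines, against 1.70%.

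The proteins through which the KRAB box acts are encoded by other genes. The 28 genes examined also include broader chromatin and DNA methylation factors, such as Daxx, Dnmt1 and Suv39h1. Trim28 was at 244.89, 166.22 and 165.85 TPM in the YS lines, at 148.23, 125.21 and 125.7 TPM in the FL lines and at 99.34, 116.39 and 102.11 TPM in the BM lines. Its 3 groups did not overlap, and no comparison passed 2-fold. Setdb1 was at 35.29 to 57.84, 42.81 to 52.06 and 40.33 to 42.93 TPM in YS, FL and BM lines. Between YS and BM lines 4 of the 28 were called (14.3%, against 12.8% of all genes), all higher in YS lines, namely Atf7ip, the partner of Setdb1, the histone chaperone Daxx, the maintenance methyltransferase Dnmt1 and the histone methyltransferase Suv39h1. Between FL and BM lines Suv39h1 was called, with 33.79 to 47.66 TPM against 14.71 to 17.92 TPM, and between YS and FL lines Dnmt1 was called, with 194.97 to 484.5 TPM against 109.53 to 177.3 TPM. Of the 28 genes, 21 were higher in YS than in BM lines without overlap (75%, against 30.3% of all genes) and 1 was lower (3.57%, against 18.7%).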

How the data were processed

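Poly(A)-selected, strand-specific libraries of 3 YS, 3 FL and 3 BM lines had been sequenced to single 75-nt reads. Per gene symbol, the authors deposited TPM. The submitters' processing notes name Trim Galore 0.6.6, STAR 2.7.9a and RSEM 1.3.3; RSEM shares reads that match several genes among them. The genome build and annotation are not given in the sources used here. TPM keeps no depth, so precision was judged from the spread of 3 lines, and the raw counts behind the study's own DESeq2 test were not used here.

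The 11753 genes that reached 1 TPM in 3 or more of 9 libraries were tested on log2(TPM + 1) with limma 3.58.1 in R 4.3.3, in one model over all 9 libraries with an intensity trend. All adjusted p-values are limma's, by Benjamini-Hochberg over all genes tested in a comparison; genes were called under 0.1 and over 2-fold, the thresholds of the study. The fit was tested on simulated data. With 3 lines against 3, an exact permutation test cannot go below 0.1. KRAB boxes and C2H2 fingers were searched in coding sequences of GENCODE M21. Unique 75-base stretches were counted over its transcripts. Chromosomes, gene order and promoters came from RefSeq GRCm38.p6; 277 of the 279 genes matched. Named genes were the up to 8 largest rises and falls called per comparison, the 6 highest, the called members of 4 role lists, those apart in one group and those at the threshold; genes named for their chromosome, their promoter or a low line were chosen after their values were seen. Members and lists were chosen with earlier results of these data known. Alternatives changed pseudocount, filter, scaling, trend, libraries, thresholds and lines; the closing section gives their effect.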

Additional observations from a re-analysis of the deposited data

How the results depend on the processing

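With log2(TPM + 4) the calls numbered 10 for YS against BM lines, 6 for FL against BM lines and 5 for YS against FL lines, and with no fold threshold they were 93, 57 and 19. With a filter at 5 TPM, which left 209 of the 279 genes, 17 were called for YS against BM lines and 12 for FL against BM lines. With only the 6 libraries compared, 1 was called between YS and FL lines. When each line was left out in turn, the calls ranged from 20 to 30, from 14 to 22 and from 5 to 9 in the 3 comparisons, the lowest of the last without FL line 2. The other settings kept each total within 1.5 times.

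Of the 33 named log2 differences, none changed sign and 12 were called under every setting; in 16 the change fell under the threshold with log2(TPM + 4). Line numbers are shared across groups in the labels, but same-numbered lines did not deviate together (correlations of -0.12 to 0.088, and 2 of 9 lines correlated best with a line of their own number). With the number as a replicate block, 27, 19 and 7 genes were called, and Zfp618 between YS and FL lines was not (limma adjusted p = 0.10).

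TPM gives no read numbers, so a level near 0 cannot be told from a failed estimate, and 31 of the 277 genes with a value had under 90% unique 75-base stretches, 8 of the 38 called genes among them.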
